A study of Mus musculus with 15 samples.

Results

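5 lines of induced extraembryonic endoderm stem (iXEN) cells made by lentiviral delivery of Sox2, Klf4 and Myc (SKM) were set against 5 lines made by lentiviral delivery of Oct4, Sox2, Klf4 and Myc (OSKM). These are 10 of the 15 libraries of the series and were taken by the names of their columns in the lentiviral count table, with all gene entries kept. The other 5 libraries, from retroviral OSKM lines, did not enter the tests. Both groups came from mouse embryonic fibroblasts of CD1 background, and each library was 1 stable line, past passage 11, from a fibroblast preparation of its own. By design the groups differ by the Oct4 vector, and they share the lentiviral vectors for the other 3 factors. Their lines were also not balanced for Xist and Y-linked transcripts, as given below. Lines are numbered here by their replicate, and p-values measure the spread between lines. The series text calls the lines iXEN, whereas their titles begin with IPS and sample fields of all but OSKM line 1 call them induced pluripotent. The treatment field of OSKM line 1 names embryonic stem cells as the starting material, and its description points to the retroviral table, although its column stands in the lentiviral one.

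XEN cells grow in culture as a stable stem cell type of the primitive endoderm, from which the parietal and visceral endoderm of the yolk sacs arise. The transcription factors Gata4, Gata6, Sox17 and Sox7 run this lineage, and parietal endoderm secretes a thick basement membrane of laminin and type IV collagen. Oct4, encoded by Pou5f1, is the POU factor at the centre of the pluripotent state and is also used in early endoderm specification. Fibroblasts given these factors can reach XEN-like or pluripotent states, and the comparison of SKM with OSKM lines addresses whether stable iXEN lines differ when no Oct4 vector was supplied.

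Levels are given as CPM, counts relative to the total counted in genes, scaled between libraries by the trimmed mean of M values (TMM). Counts in genes ranged from 60998360 to 75376275 in SKM libraries and from 64348250 to 73405134 in OSKM libraries. Between 19399 and 21048 genes had at least 1 count, and the upper limit for a count of 0, taken as 3 counts, was 0.0385 to 0.0498 CPM per library, for counting error only. SKM line 1 and OSKM line 5 stood apart from the other 8 lines in fibroblast markers and in the first principal component, and values without one or both of them are given beside the results they moved most.

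The lentiviral factors were looked at first, because they check the labels. Counts per gene do not separate vector-derived from endogenous transcripts. Pou5f1 was at 0, 0.114, 0.134, 0.382 and 0.539 CPM in SKM lines 1 to 5, against 0.560, 0.0146, 0.174, 0.0986 and 0.171 CPM in OSKM lines 1 to 5. Both groups were near the limit of detection and overlapped, with SKM line 5 and OSKM line 1 highest. The log2 fold change of SKM over OSKM was 0.20 (SE 0.99), and its sign changed with the libraries used and with limma voom, where it was −0.08. Sox2 was at 0, 0.0324, 0, 0 and 0 CPM in SKM lines, against 1.05, 0.875, 0.0268, 0 and 0.714 CPM in OSKM lines, below the filter of the test. OSKM lines 1, 2 and 5 held what Sox2 there was. Klf4 was at 152, 431, 392, 230 and 283 CPM in SKM lines, against 343, 258, 259, 149 and 137 CPM in OSKM lines, with a log2 fold change of 0.38 (SE 0.32; 0.20 without SKM line 2). Myc, the growth regulator, was at 56.7 to 110 CPM in SKM lines and at 39.2 to 105 CPM in OSKM lines (log2 fold change 0.13, SE 0.28). The groups overlapped for both genes. For Klf4, SKM lines 2 and 3 were above every OSKM line and OSKM lines 4 and 5 were below every SKM line. Without OSKM line 3 the value for Myc was −0.03.

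No relative of the factors passed the adjusted test. Pou2f1, Pou3f1 and Sox7 are named here as examples chosen after their values were seen. Of 14 other POU genes only 4 could be tested, and the ubiquitous Pou2f1 was at 33.6 to 71.2 CPM in SKM lines against 30.3 to 56.3 CPM in OSKM lines (log2 fold change 0.04, SE 0.24). Pou3f1, a POU factor of epiblast and neural cells, was highest in SKM line 5 at 2.71 CPM and in OSKM line 3 at 2.82 CPM. Of 16 further Sox genes 9 were tested, 6 with a positive and 3 with a negative fold change (median 0.47). Without SKM line 1 the median was −0.54 over 10 tested genes, and without SKM line 1 and OSKM line 5 it was −0.08. Sox7 was at 135, 670, 832, 433 and 370 CPM in SKM lines, against 524, 316, 245, 122 and 130 CPM in OSKM lines. SKM lines 2 to 5 lay above 4 of the OSKM lines, and SKM line 1 lay among the low OSKM lines, which left a log2 fold change of 0.87 (SE 0.50, edgeR unadjusted p = 0.11). It was 1.11 without SKM line 1 and 0.59 to 1.27 over the fits that left out 1 line. Of 15 further Klf genes 14 were tested, 7 in each direction (median −0.07, and −0.33 without SKM line 1 and OSKM line 5), and Klf9 was the only member at an unadjusted p under 0.05 (log2 fold change −0.54, SE 0.24, and −0.84 without SKM line 1 and OSKM line 5), a threshold that 4.86% of all genes tested met.

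The labelled identity was checked against marker genes in each line. All 12 XEN regulators were above 1 CPM in all 10 lines, with a median log2(CPM + 0.5) of 8.53 ± 0.39 in SKM lines and 8.38 ± 0.41 in OSKM lines (SD, n = 5 each). Gata4 was at 1042, 1210, 1112, 1387 and 1062 CPM in SKM lines, against 1259, 1169, 702, 1041 and 981 CPM in OSKM lines. Lifr, a receptor chain for leukaemia inhibitory factor, was at 704 to 862 CPM in SKM lines 2 to 5 and at 312 CPM in SKM line 1, against 285 to 648 CPM in OSKM lines. All 17 parietal endoderm genes were above 1 CPM in every line, with a median of 9.69 ± 0.16 in SKM lines and 9.56 ± 0.53 in OSKM lines. The laminin chain gene Lama1 was at 10228 to 23496 CPM in SKM lines and at 12373 to 24073 CPM in OSKM lines. Col4a1, which encodes a type IV collagen chain, was at 6680 to 24995 CPM in SKM lines, against 10570 to 20572 CPM in OSKM lines 1 to 4 and 62.3 CPM in OSKM line 5. That line held 52179 CPM summed over the parietal list, the lowest of the 10.

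Visceral endoderm genes varied more between lines than between groups. Their median was 4.06 ± 1.03 in SKM lines and 3.8 ± 0.79 in OSKM lines, and 10 to 14 of 18 genes exceeded 1 CPM. Cubn, an endocytic receptor of visceral endoderm, was at 1093, 116, 23.0, 557 and 180 CPM in SKM lines, against 491, 100, 44.6, 107 and 230 CPM in OSKM lines. Apoe, an apolipoprotein gene, was at 20.5, 11.7, 9.46, 682 and 84.1 CPM in SKM lines, against 10 to 29.4 CPM in OSKM lines. Amn, the partner of Cubn in the receptor complex, was at 17.9 and 14.6 CPM in SKM lines 4 and 5, and at 0.0572 to 0.641 CPM in the 8 other lines. SKM lines 4 and 5 carried the high values of both genes, and the Apoe log2 fold change was 3.07 with all lines and 0.71 without SKM line 4. Of 15 visceral genes tested 11 had a positive fold change (median 0.28), against 49.8% positive over all genes tested. Without SKM line 1 the visceral median was −0.10.

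Several core pluripotency genes were at or near 0, and other members of the list were well detected, whereas sample fields call these cells induced pluripotent. Of 24 genes 8 to 12 exceeded 1 CPM in SKM lines and 8 or 9 in OSKM lines, and 6 to 8 exceeded 10 CPM in every line. Among these was Lin28a, an RNA-binding regulator of let-7, at 218 to 441 CPM in SKM lines and 280 to 461 CPM in OSKM lines. Nanog, a core pluripotency factor, was at 0.0315 to 0.423 CPM in SKM lines and 0.0536 to 2.09 CPM in OSKM lines. Its highest value was in OSKM line 5. Tfcp2l1, a factor of naive pluripotency, was at 69.5 to 251 CPM in SKM lines and 62 to 229 CPM in OSKM lines. Klf5, a Klf factor also used in early embryos, was at 134 to 159 CPM in SKM lines and 91.5 to 166 CPM in OSKM lines. Nanog, Esrrb, Fgf4, Dppa3 and Gdf3 were picked after their values were seen. Esrrb did not exceed 0.083 CPM and Fgf4 did not exceed 0.0737 CPM in any line, and Dppa3 and Gdf3 had no counts. Fibroblast genes marked SKM line 1 and OSKM line 5, where 15 and 17 of 20 exceeded 1 CPM with list medians of 3.88 and 4.31. SKM line 2 came next with 14 genes and a median of 2.26, and the other 7 lines had medians of −0.75 to −0.10. Col1a1, the main collagen of connective tissue, was at 152 CPM in SKM line 1, 10.2 CPM in SKM line 2 and 0.0664 to 0.5 CPM in SKM lines 3 to 5, against 196 CPM in OSKM line 5 and at most 0.292 CPM in OSKM lines 1 to 4. In bulk RNA, a few cells of a type and little of its RNA in every cell cannot be told apart.

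The test across all genes asked which transcripts differed between SKM and OSKM lines. With edgeR's quasi-likelihood test and Benjamini-Hochberg adjustment, 0 of 15899 genes passed an adjusted p of 0.05 (0% called), and the smallest adjusted p was 0.758. An unadjusted p under 0.05 was reached by 773 genes (4.86%), 364 higher in SKM lines (2.29%) and 409 lower (2.57%). The lowest line of 1 group lay above the highest line of the other in 117 genes (0.736%), 63 of them higher in SKM lines (0.396%) and 54 lower (0.34%). Where no gene differs, a share of about 0.05 is expected at an unadjusted p under 0.05, and some genes separate fully. Neither count was thus taken to show a group difference. DESeq2 called 44 of 15733 genes (0.28%), 16 higher and 28 lower, and in 27 of these the groups did not overlap. Limma voom called 0, with and without sample quality weights. The 95% confidence interval of the fold change lay within 1 log2 unit either way for 8850 genes (55.7%), and its median half-width was 0.63 log2 units. For these 8850 genes a difference of 2-fold or more lay outside the interval, and for the other genes it did not.

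Msx2, Id4 and Dlx1 were lower in every SKM line than in any OSKM line, although none passed edgeR. They were among the 54 genes tested (0.34%) of which this held. Msx2 and Id4 are known targets of bone morphogenetic protein (BMP) signalling. Msx2, a homeobox repressor (GRCm38 chromosome 13 from 53466884 to 53473074), was at 4.64, 6.99, 2.85, 3.37 and 3.44 CPM in SKM lines, against 9.34, 9.14, 12.5, 26.5 and 18.7 CPM in OSKM lines. Every SKM line was below every OSKM line, and the log2 fold change was −1.84 (SE 0.37, 95% interval −2.66 to −1.02, edgeR adjusted p = 0.758). Id4, an inhibitor of basic helix-loop-helix factors (chromosome 13 from 48261228 to 48266026), was at 0.929, 1.96, 0.329, 0.432 and 0.462 CPM in SKM lines, against 3.64, 5.92, 11.6, 2.76 and 2.63 CPM in OSKM lines. The groups did not overlap, with a log2 fold change of −2.69 (SE 0.63, edgeR adjusted p = 0.824). Dlx1, a homeobox gene of the distal-less family (chromosome 2 from 71528113 to 71533981), was at 0.299, 0.243, 0.403, 0.282 and 0.5 CPM in SKM lines, against 1.87, 0.568, 1.87, 4.10 and 3.24 CPM in OSKM lines. OSKM line 2 lay close to SKM line 5, and the log2 fold change was −2.75 (SE 0.52, edgeR adjusted p = 0.758). DESeq2 called all 3, with adjusted p of 0.00139 for Msx2, 0.00541 for Id4 and 0.000715 for Dlx1. Id4 and Dlx1 overlap antisense genes in GENCODE, and with no strand setting given the reads of both strands cannot be told apart. Leaving out single lines moved the fold change of Msx2 between −2.09 and −1.54, that of Id4 between −3.30 and −2.18 and that of Dlx1 between −3 and −2.44. All 3 were picked by their p in these same lines, so the ranges are no independent support.

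The BMP pathway as a whole was mixed in direction. Id1, Id2, Bmp2 and Nog are examples chosen after their values were seen. Of 23 BMP ligands, antagonists, receptors and targets 18 were tested, 10 with positive and 8 with negative fold changes (median 0.07, against 0 over all genes tested, and −0.07 without SKM line 1). The 3 at an unadjusted p under 0.05 were Msx2, Id4 and the receptor-activated Smad9, all with negative fold changes, where 2.57% of all genes tested were lower in SKM lines at that p. Smad9 was at 0.0616 ± 0.0711 CPM in SKM lines and 0.290 ± 0.207 CPM in OSKM lines (SD, n = 5 each). The targets Id1 and Id2 had the opposite sign. Id1 was at 27.6, 10.8, 22, 18.4 and 16.2 CPM in SKM lines, against 10.3, 7.45, 29.2, 2.38 and 6.39 CPM in OSKM lines (log2 fold change 0.77, SE 0.55), and Id2 had a log2 fold change of 0.83 (SE 0.47). Bmp2, the ligand gene with the highest counts, was at 44.6 to 83.7 CPM in SKM lines and 52.2 to 82.4 CPM in OSKM lines (log2 fold change −0.07, SE 0.19). The antagonist gene Nog was at 3.24 CPM in SKM line 1 and 50 to 218 CPM in SKM lines 2 to 5, against 31.6 to 115 CPM in OSKM lines. Of 6 Dlx genes, Dlx1 and Dlx2 could be tested. Dlx2, chosen after its values were seen, was at 0 to 0.551 CPM in SKM lines and 0.0737 to 1.11 CPM in OSKM lines. The groups overlapped, with a log2 fold change of −1.86 (SE 1.17, 95% interval −4.44 to 0.71, edgeR unadjusted p = 0.14).

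The upstream sequence of Id4 is shown as that of a BMP target whose groups did not overlap. The 250 bases before the start were read from the RefSeq table for GRCm38.p6 and searched on both strands for GGCGCC, a core bound by BMP-regulated Smads, shown in capitals. The window lies at chr13:48260866-48261115 on the plus strand and is printed 5′ to 3′.
Id4: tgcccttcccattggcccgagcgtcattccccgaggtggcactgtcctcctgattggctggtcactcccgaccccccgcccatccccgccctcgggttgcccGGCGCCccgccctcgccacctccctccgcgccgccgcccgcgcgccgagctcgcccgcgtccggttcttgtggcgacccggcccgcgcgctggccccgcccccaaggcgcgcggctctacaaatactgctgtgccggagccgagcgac
The Id4 window held 1 match, and the windows of Msx2 and Dlx1, which are not printed, held 0. The motif reads the same on both strands, and 9.6% of 32851 promoters in the table held it. Of the 15 BMP list genes with an entry, 8 had a match, whereas 10.8% of all 27025 genes did. The motif holds only G and C, and neither base content nor the number of windows per gene was matched. The count therefore cannot show an enrichment of Smad sites. A match is a description of letters, and binding was not measured.

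Further genes at an unadjusted p under 0.05 had negative fold changes. They were picked by small p, which favours genes whose groups separate. Over all genes tested, 0.34% were lower in SKM lines without overlap. Vldlr, the very low density lipoprotein receptor, was at 9.57, 18.8, 17.1, 7.85 and 31.0 CPM in SKM lines, against 50.8, 73.2, 75.3, 79.4 and 27.2 CPM in OSKM lines (log2 fold change −1.86, SE 0.40). OSKM line 5 was the only OSKM line within the SKM range. The ephrin receptor gene Epha4 was at 3.75 to 6.67 CPM in SKM lines and 8.93 to 17.2 CPM in OSKM lines (log2 fold change −1.17, SE 0.26), and the zinc finger gene Wt1, a regulator of kidney and mesothelium, was at 0.777 to 1.98 CPM in SKM lines and 3.65 to 9.79 CPM in OSKM lines (log2 fold change −1.85, SE 0.40). Neither gene had overlapping groups. Dsel, which modifies dermatan sulphate, was at 4.18 to 8.25 CPM in SKM lines and 8.89 to 17.2 CPM in OSKM lines (−1.23, SE 0.27). Iglon5, a cell adhesion gene, was at 1.34 to 4.40 CPM in SKM lines and 5.05 to 29.2 CPM in OSKM lines (−2.23, SE 0.51, and −1.48 without SKM line 1 and OSKM line 5). Isoc1, a little-studied hydrolase-like gene, was at 10.6 ± 1.61 CPM in SKM lines and 20 ± 3.11 CPM in OSKM lines (SD, n = 5 each), with a log2 fold change of −0.92 (SE 0.18, edgeR adjusted p = 0.758). Its groups did not overlap, and leaving out single lines kept the fold change between −0.99 and −0.85. The gene was picked by its p in these same lines, so the range is no independent support. Parp9, an interferon-linked gene, was at 1.04 to 2.02 CPM in SKM lines and 1.9 to 7.48 CPM in OSKM lines, overlapping only through OSKM line 4. Flt1, a receptor for vascular endothelial growth factor, was at 14.7 to 76.4 CPM in SKM lines, against 161, 161, 164 and 215 CPM in OSKM lines 2 to 5 and 21.4 CPM in OSKM line 1 (−1.74, SE 0.55).

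**Figure D1:**
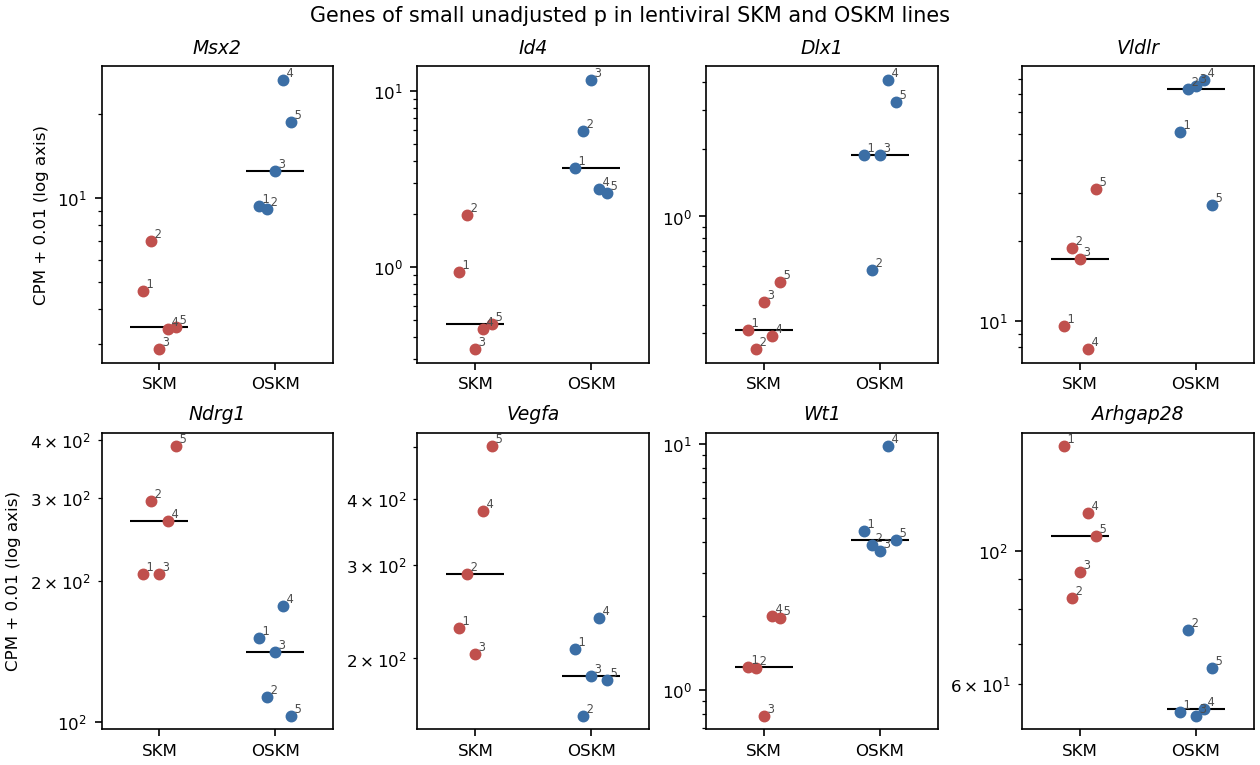
Level of 8 named genes in each line, as CPM + 0.01 on a log axis, with SKM lines left of OSKM lines in each panel. Numbers beside points are replicates and bars are medians; all 5 SKM points lie below all 5 OSKM points for Msx2, Id4, Dlx1 and Wt1 and above them for Ndrg1 and Arhgap28, whereas the groups overlap for Vegfa and Vldlr.

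On the higher side, Ndrg1, a stress-responsive gene induced by hypoxia (chromosome 15 from 66929318 to 66969640), was at 207, 296, 207, 268 and 388 CPM in SKM lines, against 151, 113, 141, 177 and 103 CPM in OSKM lines. The lowest SKM line was above the highest OSKM line, as in 0.396% of all genes tested, and the gene was picked by its small p. The log2 fold change was 1 (SE 0.21, 95% interval 0.53 to 1.46, edgeR adjusted p = 0.758). Retroviral OSKM lines, of another derivation and library series, took no part in the test and ranged from 184 to 417 CPM of Ndrg1. Their place differed by gene: for Msx2 they ranged from 1.08 to 17.9 CPM, across both groups. Marveld1, a membrane protein gene, was at 21.8 ± 4.90 CPM in SKM lines and 10.8 ± 2.50 CPM in OSKM lines (SD, n = 5 each; log2 fold change 1.01, SE 0.21). Nfkbid, which encodes a nuclear inhibitor of NF-kappaB, was at 2.49 to 9.80 CPM in SKM lines and 1.14 to 2.93 CPM in OSKM lines (1.62, SE 0.40), and Uqcc3, an assembly factor of respiratory complex III, was at 21 to 31.0 CPM in SKM lines and 12.2 to 18.6 CPM in OSKM lines (0.70, SE 0.17). The mitochondrial tRNA gene mt-Tp was at 46.5 to 76.7 CPM in SKM lines and 25.7 to 49.1 CPM in OSKM lines, while the 13 protein-coding genes of the mitochondrial genome had a median log2 fold change of 0.02.

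Most genes of hypoxia and glycolysis had small positive fold changes, although the lines of both groups overlapped. Of 24 tested members 22 had a positive fold change and 2 a negative one, against 49.8% positive over all genes tested, with a median of 0.23. The 3 at an unadjusted p under 0.05 were Ndrg1, Vegfa and Ankrd37, where 2.29% of all genes tested were higher in SKM lines at that p, and 0 passed the adjustment. The summed level over the list was 7566, 10693, 9406, 9958 and 10342 CPM in SKM lines, against 8259, 8766, 8926, 8952 and 7598 CPM in OSKM lines. SKM line 1 had the lowest sum of the 10 lines, and SKM lines 2 to 5 were above every OSKM line. In the mean log2(CPM + 0.5) over the list, OSKM line 3 at 7.1 lay above SKM lines 1 and 3 at 6.85 and 7.01. Vegfa, the angiogenic factor, was at 228, 289, 204, 380 and 503 CPM in SKM lines, against 208, 156, 185, 238 and 182 CPM in OSKM lines (log2 fold change 0.73, SE 0.24). SKM lines 4 and 5 were highest, and SKM lines 1 and 3 lay within the OSKM range. Ankrd37, a hypoxia-induced ankyrin gene, was at 3.68 to 8.32 CPM in SKM lines and 2.68 to 5.45 CPM in OSKM lines (0.70, SE 0.32). Among enzyme genes, chosen here after their values were seen, Ldha was at 554 to 1033 CPM in SKM lines and 681 to 1014 CPM in OSKM lines (0.16, SE 0.19), Pgk1 had a fold change of 0.09 (SE 0.18), and Eno1 was the most negative at −0.40 (SE 0.18). The list median stayed between 0.20 and 0.30 when single lines were left out, and was 0.29 without SKM line 1 and OSKM line 5. This list and the cholesterol, p53 and interferon lists below were chosen with earlier results of these data known. Their counts of signs took no account of members that vary together by line. The counts are therefore descriptions, and a shift of a whole pathway was not tested.

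The upstream windows of Vegfa and Ankrd37 are shown because hypoxia-inducible factors bind the core ACGTG or GCGTG. RefSeq windows for GRCm38.p6 were searched on both strands, with matches in capitals, at chr17:46032378-46032627 on the minus strand for Vegfa and chr8:45999851-46000100 on the minus strand for Ankrd37.
Vegfa: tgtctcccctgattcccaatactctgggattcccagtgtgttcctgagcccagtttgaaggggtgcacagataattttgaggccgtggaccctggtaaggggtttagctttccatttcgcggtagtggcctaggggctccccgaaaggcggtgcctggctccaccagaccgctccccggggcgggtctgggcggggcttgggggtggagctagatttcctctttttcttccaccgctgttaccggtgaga
Ankrd37: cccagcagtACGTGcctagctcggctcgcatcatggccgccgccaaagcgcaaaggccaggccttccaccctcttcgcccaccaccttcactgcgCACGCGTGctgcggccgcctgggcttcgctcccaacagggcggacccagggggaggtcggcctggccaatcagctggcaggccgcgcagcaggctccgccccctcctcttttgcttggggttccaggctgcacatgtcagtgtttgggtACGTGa
Ankrd37 held 4 matches, a pair of which overlap on opposite strands, and the Vegfa window shown held 0. A further Vegfa window in the table, which is not printed, held 2. Over all promoters 38.6% held a match, and of the 23 list genes with an entry 21 had one in at least 1 promoter, against 41.5% of all genes. Genes with several annotated starts have more windows, which was not corrected for. Base content was not matched either, and each core holds a CG pair. The count therefore cannot show an enrichment of such sites, and binding was not measured.

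Cholesterol synthesis genes had the opposite sign. Of 24 tested members 21 were lower and 3 higher in SKM lines, against 50.2% lower over all genes tested. Their median log2 fold change was −0.32, and 0 passed. Insig1, which retains the sterol sensor in the endoplasmic reticulum, was among the 3 higher members, at 399 to 650 CPM in SKM lines and 266 to 490 CPM in OSKM lines (0.51, SE 0.19). SKM line 1 did not share the low values: its summed level over the list was 2744 CPM, the highest of the 10 lines, while SKM lines 2 to 5 were at 1394 to 1902 CPM and OSKM lines at 1702 to 2472 CPM. Without SKM line 1 the median was −0.65, and without SKM line 5 it was −0.15.

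Genes induced by p53 were lower in SKM lines for 19 of 20 tested members, against 50.2% lower over all genes tested. Their median was −0.30, and 0 passed. An edgeR unadjusted p under 0.05 was reached by 3 members, all lower, where 2.57% of all genes tested were lower at that p. In Cdkn1a and Mdm2, chosen after their values were seen, the groups overlapped: Cdkn1a, the cell cycle inhibitor p21, was at 125 to 189 CPM in SKM lines and 150 to 277 CPM in OSKM lines (−0.28, SE 0.20), and Mdm2, the ligase that restrains p53, was at 127 to 189 CPM in SKM lines and 167 to 234 CPM in OSKM lines (−0.29, SE 0.14). Fas, the death receptor, was at 3.90, 3.41, 0.926, 1.05 and 1.04 CPM in SKM lines, against 3.40, 11.0, 2.52, 5.33 and 11.6 CPM in OSKM lines (−1.72, SE 0.59). Aen, a nuclease of the same response, was at 52.3 to 78.5 CPM in SKM lines and 77.3 to 111 CPM in OSKM lines (−0.41, SE 0.15). The summed level over the list was 2194 to 2628 CPM in SKM lines and 2447 to 3574 CPM in OSKM lines, and OSKM line 3 was highest. The list median lay between −0.36 and −0.23 with single lines left out.

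Interferon response genes were lower in SKM lines for 19 of 21 tested members (median −0.58), against 50.2% lower over all genes tested. An edgeR unadjusted p under 0.05 was reached by 2 members, each lower, where 2.57% of all genes tested were lower at that p. After adjustment 0 passed. The summed level over the list was 103, 272, 129, 107 and 102 CPM in SKM lines, against 132, 271, 164, 122 and 287 CPM in OSKM lines. SKM line 2 and OSKM lines 2 and 5 were high, and the groups overlapped. Ifih1, a sensor of double-stranded RNA, was at 0.0498 to 0.681 CPM in SKM lines and at 0.0141 to 1.71 CPM in OSKM lines 1 to 4 with 5.89 CPM in OSKM line 5 (−2.72, SE 1.19; −1.28 without OSKM line 5). Ifit2, an interferon-induced effector, was at 2.25, 0.178, 0.194, 0.481 and 0.282 CPM in SKM lines, against 1.72, 1.65, 1.14, 3.66 and 3.97 CPM in OSKM lines (−1.84, SE 0.76; −3.09 without SKM line 1). The list median was −0.33 without OSKM line 5, −0.31 without OSKM line 2, −0.33 without SKM line 1, −1.13 without SKM line 2 and −0.21 without both OSKM line 5 and SKM line 1. OSKM line 5 also had the highest fibroblast markers, and their part in the interferon values was not tested.

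**Figure D2:**
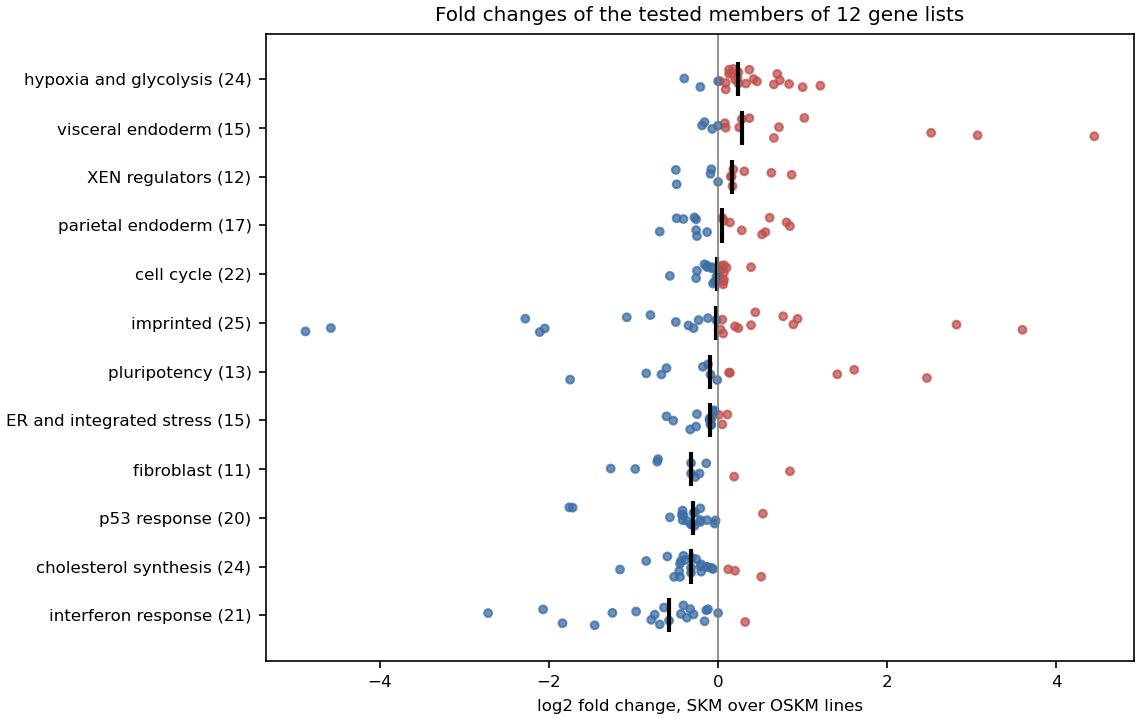
Log2 fold changes (SKM over OSKM) of the tested members of 12 gene lists, with the number tested in brackets; each point is a gene, red for positive and blue for negative values, and the black bar is the list median. The hypoxia and glycolysis median is 0.23, and the medians of the cholesterol, p53 and interferon lists are −0.32, −0.30 and −0.58, while no gene passed the adjusted test.

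Cell cycle, stress and signalling lists were counted in the same way, and 0 of their genes passed. Over all genes tested, 49.8% were higher and 50.2% lower in SKM lines. Of 22 cell cycle genes 10 were higher and 12 lower (median −0.01), with Ccne1, the cyclin of the G1 to S transition, at 23.8 ± 7.46 CPM in SKM lines and 35.3 ± 3.74 CPM in OSKM lines (SD, n = 5 each; log2 fold change −0.57, SE 0.21). Endoplasmic reticulum stress genes had 3 of 15 higher (median −0.09). Leaving out single lines moved the cell cycle median between −0.09 and 0.07 and the stress median between −0.23 and 0.04. Of 11 Wnt targets tested 3 were higher (median −0.44), and the median was −0.02 without OSKM line 5. Of 11 Nodal and transforming growth factor genes 3 were higher (median −0.20), and the median was 0.11 without OSKM line 5, −0.59 without SKM line 1 and −0.27 without both. Of 16 genes of fibroblast growth factor feedback 8 were higher (median 0.03, and −0.35 without SKM line 1), and of 12 Hippo targets 4 (median −0.22, and −0.34 to −0.11 without single lines). Lefty1, an antagonist of Nodal, was at 0.149 to 0.276 CPM in SKM lines and 0.0134 to 0.0437 CPM in OSKM lines. Nodal did not exceed 0.236 CPM in any line. Both were below the filter of the test and were chosen after their values were seen. All 7 trophoblast genes tested had negative fold changes (median −0.56). Without OSKM line 5 the median was −0.30 with 3 of 8 tested genes higher in SKM lines, and without OSKM line 5 and SKM line 1 it was −0.34 with 2 of 7 higher. The keratin gene Krt7 was at 0.232 to 0.956 CPM in SKM lines and 0.254 to 4.47 CPM in OSKM lines (−2.14, SE 0.70). Cdx2, the trophoblast regulator, was at 13.7 CPM in OSKM line 5 and at most 0.332 CPM in the 9 other lines.

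Imprinted genes and DNA methylation enzymes differed by line. Of 25 imprinted genes tested 12 were higher and 13 lower, with log2 fold changes from −4.88 to 3.60. Rian, Igf2r and Dnmt1 are named here after their values were seen. Meg3, the maternal noncoding RNA of the Dlk1 domain, was at 12.5, 3.02, 0, 0.0166 and 0.526 CPM in SKM lines, against 0.133, 0.481, 369, 0.113 and 13.8 CPM in OSKM lines. OSKM line 3 alone held it at a high level, as it did Rian from the same domain at 357 CPM. Igf2, a paternally expressed growth factor, was at 96.1 CPM in SKM line 4, 10.1 CPM in SKM line 1 and 0.747 to 1.06 CPM in the other SKM lines, against 0.0714 to 5.17 CPM in OSKM lines. Its log2 fold change was 3.60 (SE 1.53), and 0.85 without SKM line 4. Igf2r was at 275 and 305 CPM in SKM lines 3 and 4 and at 392 CPM in OSKM line 5, against 15.6 to 29.8 CPM in the 7 other lines. Ndn, a paternally expressed gene, was at 3.58 to 14.2 CPM in SKM lines and 11.8 to 32.7 CPM in OSKM lines (−1.08, SE 0.45). Dnmt3l, a cofactor of de novo DNA methylation, was at 0.472, 0.341, 1.06, 6.99 and 4.22 CPM in SKM lines, against 0.268 to 0.796 CPM in OSKM lines (2.59, SE 0.83). SKM lines 4 and 5 were high, as they were for Apoe and Amn. The maintenance methylase gene Dnmt1 was at 142 to 280 CPM in SKM lines and 129 to 307 CPM in OSKM lines.

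Sex-linked transcripts separated the lines in ways that only partly followed the groups. Xist, the noncoding RNA that coats the inactive X chromosome, was at 0.724, 1.54, 1.45, 66.0 and 2.33 CPM in SKM lines, against 1552, 1038, 3.70, 2062 and 8.33 CPM in OSKM lines. OSKM lines 1, 2 and 4 were high and SKM line 4 intermediate (log2 fold change −6.02, SE 1.96, edgeR adjusted p = 0.979, DESeq2 adjusted p = 0.0154). Without SKM line 4 the Xist value was −9.26. Ddx3y, a Y-linked helicase gene, was at 49.0, 0.211, 41.8, 103 and 0 CPM in SKM lines, against 0, 0, 12, 0 and 0.1 CPM in OSKM lines. SKM lines 1 and 3 and OSKM line 3 also held the other Y-linked genes, with Eif2s3y at 39.8 and 37.0 CPM in the SKM lines and 12.3 CPM in OSKM line 3. In SKM line 4 the Y genes were uneven: Ddx3y and Uty were at 103 and 12.9 CPM, whereas Eif2s3y and Kdm5d were at 0.133 and 0 CPM. In OSKM line 5 Eif2s3y was at 5.42 CPM and Uty at 1.33 CPM, whereas Ddx3y was at 0.1 CPM and Kdm5d at 0. SKM lines 2 and 5 were low for Xist and for all 4 Y genes. The Y-linked fold changes were 3.99 (SE 2.21) for Ddx3y, 3.12 (SE 1.98) for Uty and 2.13 (SE 2.02) for Eif2s3y. They rested on few lines: without OSKM line 3 they were 10.49 for Ddx3y, where the 4 other OSKM lines had at most 0.1 CPM, 4.29 for Uty and 3.53 for Eif2s3y. The fold changes of the 6 tested X genes known to escape silencing were all negative, from −0.28 to −0.07, against 50.2% negative over all genes tested. Xist and Y-linked levels were thus not balanced between the groups, and their part in the fold changes cannot be told apart from that of the vectors where both coincide.

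**Figure D3:**
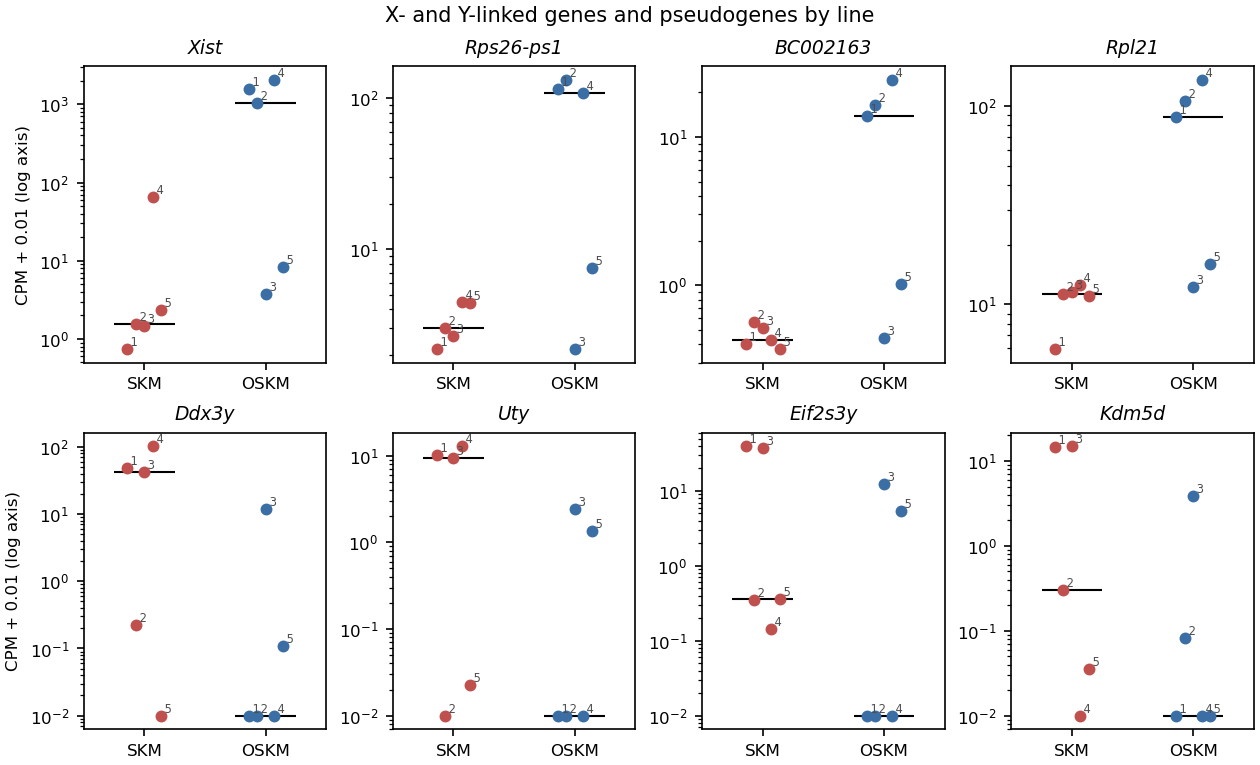
Xist, Rps26-ps1, BC002163, Rpl21 and 4 Y-linked genes in each line, as CPM + 0.01 on a log axis. SKM lines are left of OSKM lines, with replicate numbers beside points and medians as bars. OSKM lines 1, 2 and 4 are high for Xist, Rps26-ps1, BC002163 and Rpl21 together. All 4 Y-linked genes exceed 1 CPM in SKM lines 1 and 3 and OSKM line 3, and SKM line 4 is the highest line for Ddx3y and Uty only.

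The same 3 OSKM lines with high Xist stood out in ribosomal protein copies and a further pseudogene, BC002163, which gave some of the smallest p-values. The pseudogene Rps26-ps1 was at 2.16 to 4.47 CPM in SKM lines, against 115, 133 and 108 CPM in OSKM lines 1, 2 and 4 and 2.16 and 7.52 CPM in OSKM lines 3 and 5 (log2 fold change −4.45, SE 0.96). The processed pseudogene BC002163 was at 0.359 to 0.551 CPM in SKM lines, against 13.8, 16.5 and 24.3 CPM in those 3 lines. OSKM lines 3 and 5 were at 0.428 and 1.01 CPM. Rpl21 was at 5.92 to 12.5 CPM in SKM lines, against 88.6, 106 and 136 CPM in the same 3 lines and 12.3 and 16 CPM in OSKM lines 3 and 5. Rpl21-ps8 followed the same split. These genes have near-identical copies elsewhere, so the reads of a copy may be counted under another, and their values are uncertain. Retroviral OSKM lines, which took no part in the test, had Xist at 0.377 to 5.55 CPM. In them Rpl21 ranged from 11.5 to 181 CPM and Rpl21-ps8 from 0.368 to 8.01 CPM. Rps26-ps1 ranged from 1.09 to 2.91 CPM there, and BC002163 from 0.163 to 0.538 CPM.

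Chromosome 17, which carries Pou5f1 and Vegfa, held more of the genes higher in SKM lines than its share of the genes tested. It has 784 of the tested genes (4.9%) but 96 of the 364 higher in SKM lines at an unadjusted p under 0.05 (26.4%), with 8 lower, and 24 of the 63 higher without overlap between groups (38.1%), with 1 lower. The background over all genes was 2.29% higher at that p and 0.396% higher without overlap. Of its tested genes 598 (76.3%) had a positive fold change, and the median log2 fold change was 0.21, against 0 over all genes. The genes without overlap were spread from 21962552 to 87000069 on the chromosome. Among them Arhgap28, a GTPase-activating protein gene, was at 150, 83.4, 92.2, 116 and 106 CPM in SKM lines, against 53.9, 73.9, 53.1, 54.5 and 63.7 CPM in OSKM lines (0.87, SE 0.17). Map4k3, a kinase of nutrient signalling, was at 111 ± 4.25 CPM in SKM lines and 72.6 ± 11.8 CPM in OSKM lines (SD, n = 5 each; 0.61, SE 0.13). Ddah2, which degrades methylated arginines, was at 287 to 497 CPM in SKM lines and 197 to 282 CPM in OSKM lines (0.74, SE 0.16), and Tbc1d24, a vesicle trafficking gene, was at 165 to 201 CPM in SKM lines and 107 to 142 CPM in OSKM lines (0.55, SE 0.12). Zfand3 had a fold change of 0.47 (SE 0.11).

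Measured per line, chromosome 17 was shifted to unequal degrees. The median deviation of its 435 genes with at least 10 CPM on average, relative to the gene medians over the 10 lines, was 0.31, −0.01, 0.12, 0.15 and 0.01 log2 units in SKM lines, against −0.15, −0.15, −0.06, 0.01 and −0.04 in OSKM lines. SKM line 1 was highest, OSKM lines 1 and 2 were lowest, and SKM lines 2 and 5 lay beside OSKM line 4. The group means were 0.11 ± 0.13 in SKM lines and −0.08 ± 0.07 in OSKM lines (SD, n = 5 each), a difference of 0.19 (exact two-sided permutation test over lines, p = 0.0159, and 0.317 after Benjamini-Hochberg adjustment over 20 chromosomes). The comparison was added after the data were seen. Chromosome 17 had stood out by counts in these same lines, so the unadjusted p is no independent support. Without SKM line 1 the count of genes higher at that threshold was 79 of 522 over all chromosomes (15.1%), and without SKM line 1 and OSKM line 5 it was 88 of 525 (16.8%). It was 67 to 111 over the 10 fits that left out 1 line, lowest without OSKM line 2 at 67 of 332 (20.2%). With the Y-linked level as a covariate it was 42 of 378 (11.1%), and the median fold change was 0.13, against 0.21 without it. Chromosome 19 came next, with 9 of the 63 genes without overlap and 45 of the 364 at that p. Its line medians differed by 0.14 (0.05 ± 0.05 in SKM lines and −0.09 ± 0.15 in OSKM lines, exact permutation p = 0.103, adjusted 0.794). OSKM lines 4 and 5 were low there at −0.24 and −0.26, and the other 8 lines were at −0.05 to 0.12.

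**Figure D4:**
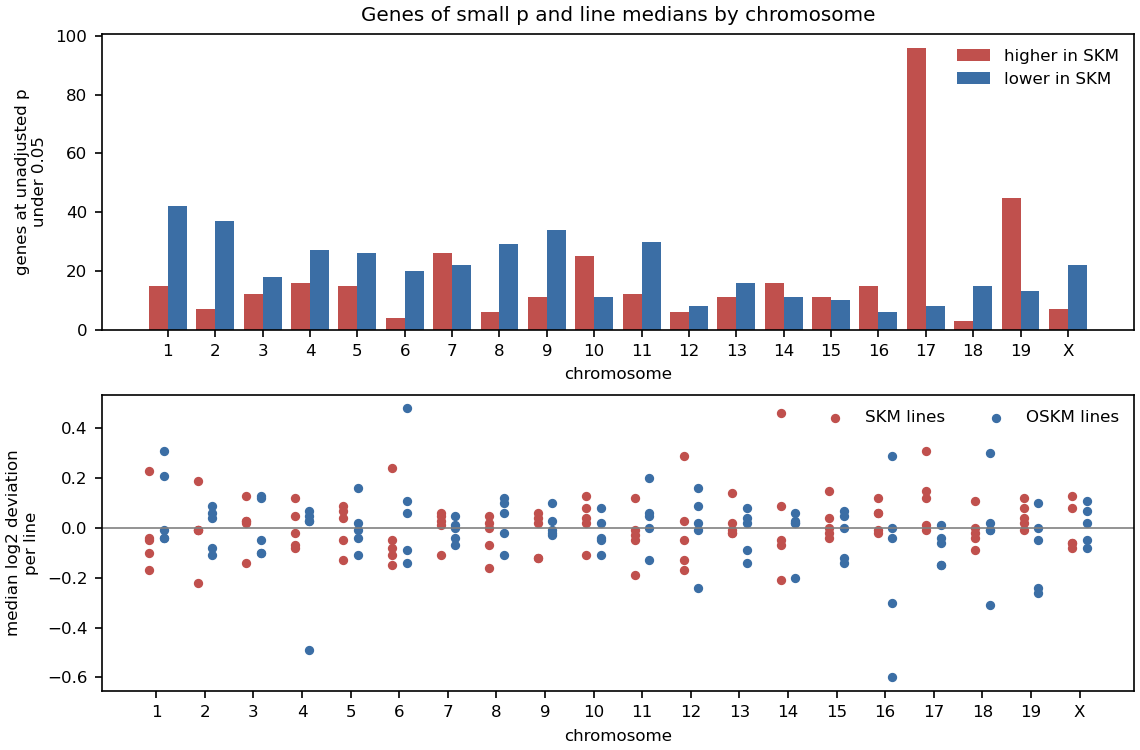
Upper panel, number of genes per chromosome at an unadjusted edgeR p under 0.05, red for higher and blue for lower in SKM lines. Lower panel, median log2 deviation of the genes of each chromosome in each line, red for SKM and blue for OSKM lines; chromosome 17 has 96 higher and 8 lower genes, and its SKM medians reach 0.31.

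Several lines carried shifts over a whole chromosome or a large part of it. Of 200 pairs of a line and a chromosome 12 had a median of at least 0.25 log2 units in size, 3 in SKM lines and 9 in OSKM lines. In SKM line 3 chromosome 14 was at 0.46, with 89.2% of its 334 genes above their median. OSKM line 5 had chromosome 6 at 0.48, chromosome 1 at 0.31, chromosome 16 at −0.60, chromosome 18 at −0.31 and chromosome 19 at −0.26. OSKM line 4 had chromosome 4 at −0.49, and along it the genes up to 45 Mb lay at 0.08 to 0.31 and those beyond at −0.65 to −0.50. In SKM line 5 the first 15 Mb of chromosome 19 were at 0.51 and the rest at −0.35 to −0.13, a split that the median of 0.02 for the whole chromosome does not show. SKM line 1 had chromosome 12 at 0.29, OSKM line 1 chromosome 16 at 0.29, OSKM line 3 chromosome 16 at −0.30 and OSKM line 2 chromosome 18 at 0.30. DNA copy number was not measured, and whether these shifts come from gained or lost chromosomes was not tested.

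**Figure D5:**
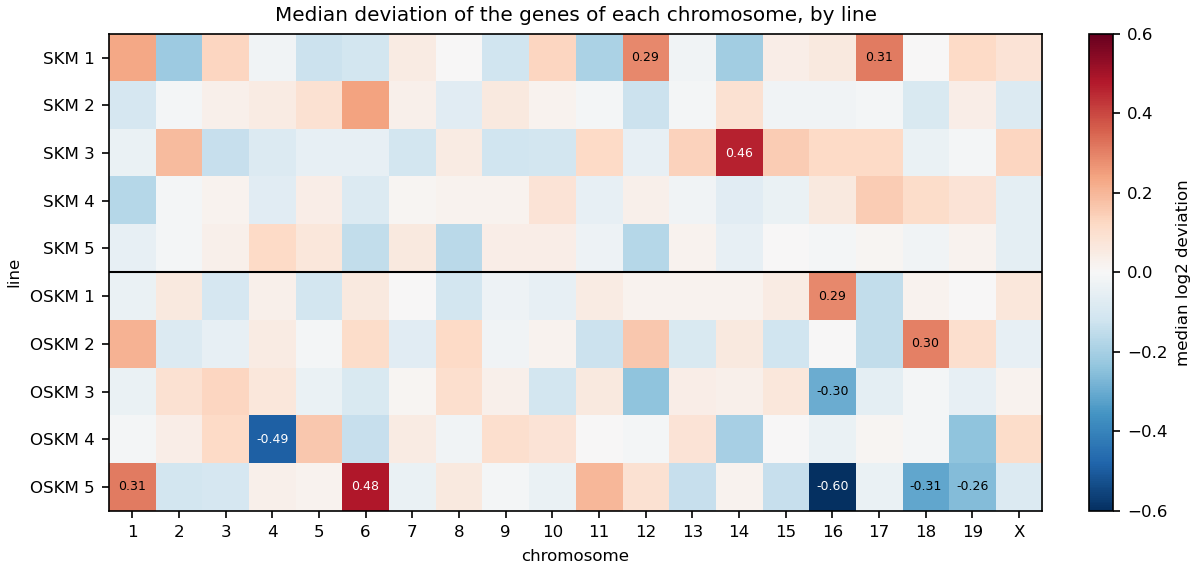
Median log2 deviation of the genes of each chromosome (columns) in each line (SKM lines above OSKM lines), relative to the gene medians over the 10 lines, for genes averaging 10 CPM or more; red is higher, blue lower, and values of at least 0.25 in size are printed. OSKM line 5 has 5 such chromosomes, from −0.60 on chromosome 16 to 0.48 on chromosome 6.

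Lines of one group differed about as much as lines of different groups. Among the 12675 genes averaging 1 CPM or more, the median SD of log2(CPM + 0.5) was 0.34 in SKM lines and 0.34 in OSKM lines, and the SKM value was the larger in 49.0% of genes. The group means differed by a median of 0.16, and by more than 2 pooled SD in 149 genes (1.18%). Spearman correlations over genes averaged 0.942 between SKM lines, 0.939 between OSKM lines and 0.940 between lines of different groups. The nearest library to SKM line 1 was OSKM line 1, that of OSKM line 3 was SKM line 3 and that of OSKM line 5 was SKM line 1, while the other 7 lines had their nearest library in their own group. The first principal component of the 1000 most variable genes (32.5% of variance) set SKM line 1 and OSKM line 5, at 42.8 and 60.7, apart from the other 8 lines, at −33.1 to −2.2. Col1a1, the secreted phosphoprotein gene Spp1 and Col1a2 led its positive side, and Trap1a and Col4a1 were on its negative side. Trap1a, an X-linked gene, was at 0.063 CPM in SKM line 1 and 0.614 CPM in OSKM line 5, against 127 to 200 CPM in the other SKM lines and 109 to 172 CPM in the other OSKM lines. Spp1 was at 24.0 and 64.9 CPM in SKM lines 1 and 2 and 442 CPM in OSKM line 5, and at most 1.9 CPM elsewhere. Without SKM line 1 and OSKM line 5 edgeR still called 0 genes, with a median fold change of 0.16 for chromosome 17.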

How the data were processed

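PolyA RNA was sequenced with a stranded mRNA kit, per the labels' protocols. The submitters' processing notes name HISAT2 2.1.0, HTSeq 0.11.2, Trimmomatic 0.39, SAMtools 1.9 and FastQC 0.11.7, with build mm10. The authors deposited raw counts per Ensembl gene. The sources used here do not give the annotation or the strand setting. Names and positions came from GENCODE M21 for 42548 of 43432 identifiers, and 5 HTSeq summary entries were left out. Between 68.8% and 74.5% of reads were counted in genes.

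The 5 SKM and 5 OSKM columns were tested with edgeR 4.0.16 (R 4.3.3, TMM, filterByExpr with a minimum count of 10, quasi-likelihood test, Benjamini-Hochberg threshold 0.05), which was tested on simulated data. Levels on a log scale are log2(CPM + 0.5). DESeq2 1.42.0 and limma 3.58.1 were alternatives. Members and the 40 gene lists were chosen with earlier results of these data known. Named genes were the factors, the 12 higher and 12 lower genes of smallest p with a mean log2 CPM of at least 1 and no clone name, up to 3 members of a list at an unadjusted p under 0.05, the 4 highest members of each marker list and the 10 most variable genes as levels, and the sex-linked list. Some genes that meet this rule are not reported here. Other genes are said to be chosen after their values were seen. Chromosome comparisons, and values without single lines for Sox7 and the Sox and trophoblast lists, were added after the data were seen. Same-numbered lines had correlations of their deviations between −0.123 and 0.292, so numbers were not taken as pairs.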

Additional observations from a re-analysis of the deposited data

Results flagged for a closer look

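In 23 of 189 groups of 5 lines tested (12.2%) the highest or lowest line lay far from the others by Dixon's criterion, which chance alone meets in about 1 of 20 groups. The genes tested include the 10 chosen as the most variable between lines, so the share is not comparable with that rate. OSKM line 5 accounted for 8 of these and SKM line 1 for 4.

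OSKM line 5 was low for Col4a1 (62.3 CPM), Sparc, a matrix protein gene (10204 CPM), Cdh5, an endothelial cadherin gene (13.5 CPM), and Trap1a (0.614 CPM). It was high for Cdx2 (13.7 CPM), Col1a1 (196 CPM), Spp1 (442 CPM) and Slco3a1, a transporter gene (47.5 CPM). SKM line 1 was low for Trap1a (0.063 CPM), Lifr (312 CPM) and Rpl21 (5.92 CPM), and high for Ifit2 (2.25 CPM).

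In the other SKM lines, Epha4 was low in line 4 (3.75 CPM), where Xist was high (66 CPM), and Ripor2 was low in line 3 (0.12 CPM). In the other OSKM lines, Flt1 was low in line 1 (21.4 CPM). Line 2 was high for the germline genes Sohlh2 (12 CPM) and Asz1 (1.76 CPM). Line 3 was high for Ddx3y (12 CPM) and Kdm5d (3.83 CPM), and low for Mybpc3, a cardiac myosin-binding gene, at 2.13 CPM against 90.6 to 136 CPM in the other OSKM lines. Line 4 was high for Wt1 (9.79 CPM) and Lyz2, a myeloid lysozyme gene (5.24 CPM).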

How the results depend on the processing

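Of 21 alternatives, DESeq2 called 44 genes and the other 20 called 0. Of 1203 fold changes of 58 genes recomputed, 1170 kept their direction and side of the threshold, 26 passed it with DESeq2 only, and 7 changed sign. The sign changes were Pou5f1 at −0.08 with limma voom and −0.37 to 1.02 over fits without 1 line, Myc at −0.03 to 0.28 over the same fits, and Uty at −2.01 and Eif2s3y at −0.06 with a Y-linked covariate, under which Ddx3y was at 0.75. The chromosome 17 count of 96 was 42 with that covariate. Genes without overlap numbered 115 with RLE scaling and 90 with a filter of at least 1 CPM in 5 libraries. The replicate block, in which numbers did not pair the lines, called 0 genes. Median pluripotency levels were −1.96 in SKM and −2.17 in OSKM lines with a pseudocount of 0.1, and means over the list were 1.54 and 1.5. The mean over the parietal list was 10.53 in SKM and 10.35 in OSKM lines. The fibroblast median fold change was −0.32 with all lines and 0.11 without OSKM line 5. The Sox family median was −0.54 to 0.71 over fits without 1 line, lowest without SKM line 1, and −0.08 without SKM line 1 and OSKM line 5, against 0.47 with all lines. The cause of these changes was not tested. Other than Sox7, genes said to be chosen after their values were seen were not recomputed. Having 5 lines a group and this counting depth limits low genes such as Pou5f1, and reads of near-identical copies could not be separated.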
